A study of Mus musculus with 15 samples.

Results

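The genes described here, 9 in number, move, store and sense iron and were taken by symbol from the deposited table of 21761 mouse genes, and each symbol matched a single row. The 9 are Tfrc, Slc11a2, Steap3, Slc40a1, Fth1, Ftl1, Aco1, Ireb2 and Hmox1. They were measured by poly(A) RNA sequencing in 15 libraries of B cells from spleens of female, wild-type C57BL/6J mice, with 3 libraries in each of 5 groups. The naive group was sorted as CD43- B cells and was neither stimulated nor treated. The other groups were CD43- B cells cultured with lipopolysaccharide, IL-2 and IL-5 and collected after 3 days. They were enriched with magnets either as GL7+ cells, which the sample titles call activated B cells (ActB), or as CD138+ cells (PB). Each of these fractions was taken from cultures with either the solvent DMSO or 250 nM GSK-J4, an inhibitor of the H3K27me3 demethylases KDM6A and KDM6B. The labels give no age for the mice, and the mouse number equals the replicate number, so that naive, GL7+ and CD138+ libraries came from the same mice. The column headed as number 4 of the CD138+ GSK-J4 group matches no label number and is called library 4 here.

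Most cells take up iron as transferrin bound to the transferrin receptor, which is carried into endosomes, where a STEAP reductase converts ferric to ferrous iron and DMT1 moves it into the cytosol. Iron that is not used is held inside ferritin, a shell of heavy and light chains, and ferroportin is the known exporter of cellular iron. When iron is scarce, the iron regulatory proteins IRP1 and IRP2 bind hairpins called iron-responsive elements (IREs), which blocks translation of an mRNA that has one in its 5' untranslated region (UTR) and protects the Tfrc mRNA, which has several in its 3' UTR, from decay. Proliferating lymphocytes are known for a high demand for iron through the transferrin receptor.

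The hairpins found differ in place and number between the uptake gene Tfrc and the storage and export genes, and they are shown because the genes below include both kinds. All later values are mRNA levels; protein was not measured. A search covered a single protein-coding transcript per gene of GENCODE M21 (GRCm38), a principal one where marked and otherwise the longest. It looked for an unpaired C, 5 bases, the loop CAGTGN and 5 bases that pair with the first 5, with G-U pairs allowed. Of the 9 genes, 4 held a match. Among 21901 protein-coding genes, 20 (0.0913%) held a match in the 5' UTR, 116 (0.53%) in the 3' UTR and 134 (0.612%) over coding sequence. The 6 capitals mark the loop in the 29-base sequences that follow, written 5' to 3' on the strand of the transcript.
Fth1 (5' UTR, chr19:9982732-9982760, plus strand): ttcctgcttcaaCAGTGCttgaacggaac
Ftl1 (5' UTR, chr7:45459779-45459807, minus strand): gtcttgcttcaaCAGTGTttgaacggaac
Slc40a1 (5' UTR, chr1:45925465-45925493, minus strand): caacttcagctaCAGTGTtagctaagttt
Tfrc 1 (3' UTR, chr16:32631219-32631247, plus strand): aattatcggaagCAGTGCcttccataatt
Tfrc 2 (3' UTR, chr16:32631598-32631626, plus strand): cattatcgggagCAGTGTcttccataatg
Tfrc 3 (3' UTR, chr16:32631663-32631691, plus strand): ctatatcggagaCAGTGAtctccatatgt
Tfrc 4 (3' UTR, chr16:32631710-32631738, plus strand): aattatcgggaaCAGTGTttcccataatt
A match describes letters in a window, and no match in the other 5 genes says only that these letters were not found in the transcript searched. Other transcripts of these genes were not searched.

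The libraries held between 1317998 (naive library 2) and 13190198 reads assigned to genes, and the CD138+ GSK-J4 libraries between 6241259 and 7712189. Values are RPKM, reads scaled to the length of the gene and to the reads of the library, means are given ± SD over the 3 libraries of a group (n = 3), and changes are differences of log2(RPKM + 1), which understate changes of low genes. A gene is called higher, lower, risen or fallen where limma's p, adjusted by Benjamini-Hochberg over 10866 genes, is under 0.05. Summed RPKM of 6 plasma cell markers was 402.8 to 448.52 in naive, 1166.8 to 1303 in GL7+ DMSO and 4495.1 to 4736.3 in CD138+ DMSO libraries. The 6 B cell markers were detected in every library. Of the activated B cell markers, Fas was at 1.922 RPKM in naive and 6.852 in GL7+ DMSO cells, whereas Cd83 and Bcl6 were lower in the GL7+ cells (69.9 and 3.858) than in naive cells (227.4 and 50.4). The naive libraries also carried transcripts of other cell types: 12 macrophage and myeloid markers summed to 114.41 to 161.6 RPKM in naive libraries and 7.176 to 14.133 in cultured ones, 8 erythroid markers to 205.48 to 228.53 against 0.84 to 9.799, and 10 T and NK cell markers to 25.396 to 30.045 against 0.96 to 4.317. In bulk RNA, fewer cells of a type and less RNA per cell cannot be told apart.

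Tfrc, the transferrin receptor that brings iron into the cell, was the uptake gene with the highest level and stood lowest in naive cells. It was at 26.119, 21.414 and 22.081 RPKM in the naive libraries and at 83.38, 84.119 and 81.537 in the GL7+ DMSO libraries. In CD138+ DMSO libraries it was at 75.979, 72.613 and 74.417. All 6 cultured DMSO libraries lay above all 3 naive ones, and mean RPKM was 3.58 times the naive mean in GL7+ and 3.20 times in CD138+ cells. The log2 change was 1.80 (SE 0.066, adjusted p = 2.3e-12) in GL7+ and 1.64 (adjusted p = 4.4e-12) in CD138+ cells. CD138+ and GL7+ DMSO libraries did not overlap, and their difference of -0.16 was not called (adjusted p = 0.052, 0.0028 to 0.14 over 21 alternative settings, of which 5 gave a call, among them those without naive library 1, naive library 2 or GL7+ GSK-J4 library 2: 0.011, 0.03 and 0.046). By mean level Tfrc moved from rank 2916 of the 10866 tested genes in naive cells to rank 836 in GL7+ DMSO cells.

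With GSK-J4, Tfrc was at 103.113, 112.783 and 100.968 RPKM in GL7+ libraries, each above every DMSO library of that fraction. This was a rise of 0.34 on the log2 scale (95% interval 0.20 to 0.48, adjusted p = 0.004), or 1.27 times in mean RPKM. In CD138+ libraries with GSK-J4 it was at 84.791, 88.765 and 81.274, again above every DMSO library, but the change of 0.19 (0.05 to 0.33) did not pass the test (adjusted p = 0.073, 0.018 to 0.22 over 21 alternative settings, of which 4 gave a call). The difference between the 2 drug effects was -0.15 (-0.35 to 0.05, adjusted p = 0.51), so a difference between fractions was not shown. Beside the rise in GL7+ cells, 5 of 6 plasma cell markers were called higher with the drug in that fraction (sum 1423.3 to 1567.2 RPKM), where 5.81% of all tested genes were. In CD138+ cells 0 of the 6 were called higher or lower with the drug. The part of plasma cell transcripts in the Tfrc rise was not tested.

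Slc11a2, which encodes DMT1, the transporter that moves ferrous iron across membranes, stood at a low level in every group, with small differences. Its values were 3.981, 4.47 and 4.061 RPKM in naive, 3.989, 3.545 and 3.725 in GL7+ DMSO and 5.323, 4.614 and 5.318 in CD138+ DMSO libraries. The naive and GL7+ ranges overlapped and the change of -0.12 was not called (adjusted p = 0.12). CD138+ cells were higher than GL7+ cells by 0.36 (adjusted p = 0.00051) and higher than naive cells by 0.23 (adjusted p = 0.0062). With GSK-J4 its values were 4.406, 4.532 and 4.382 in GL7+ cells, all above the DMSO values of that fraction, with a log2 difference of 0.20 that was not called (adjusted p = 0.08, 0.028 to 0.22 over the alternatives). In CD138+ cells the drug libraries, at 5.286, 4.976 and 5.202, overlapped the DMSO libraries.

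Steap3, a reductase that prepares endosomal iron for DMT1, was a low-level gene with wide swings. Naive libraries had 0.644, 0.716 and 0.612 RPKM, GL7+ DMSO libraries 2.541, 2.503 and 2.921, and CD138+ DMSO libraries 1.529, 1.028 and 0.889. No range overlapped another. The gene reached 1 RPKM in no naive library and in 8 cultured ones. These were every GL7+ library and CD138+ DMSO libraries 1 and 2, so the filter was passed through the GL7+ cells. Its calls against naive, and the call between CD138+ and GL7+ cells, are therefore a description. The rise over naive was 1.14 in GL7+ cells (adjusted p = 2.4e-07), and CD138+ cells were lower than GL7+ cells by a log2 change of -0.78 (adjusted p = 4e-05). Against naive, the CD138+ cells were higher by 0.36 (adjusted p = 0.0086), a call that was lost without CD138+ DMSO library 1, the highest of its group (0.24, adjusted p = 0.057).

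With GSK-J4, Steap3 was lower in the CD138+ fraction, at 0.404, 0.122 and 0.232 RPKM, below every CD138+ DMSO library and below every naive one. The log2 change was -0.77 (95% interval -1.02 to -0.53, adjusted p = 0.00061), and it was called in all 21 alternative settings. These values rest on 16 reads in all in the drug group against 116 in the DMSO group, which gives a pooled ratio of DMSO over GSK-J4 of 4.66 (2.75 to 8.42, counting error only). In GL7+ cells the drug libraries were at 1.997, 2.264 and 1.856, below each DMSO library, and the change of -0.27 was not called (adjusted p = 0.14). The difference between the drug effects was -0.51 (unadjusted p = 0.00723) and did not pass adjustment in the fit used here (adjusted p = 0.16). It was called with limma-voom on reads recovered from the RPKM (-1.81, adjusted p = 0.011) and over all alternatives the adjusted p ran from 0.011 to 0.33.

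**Figure D1:**
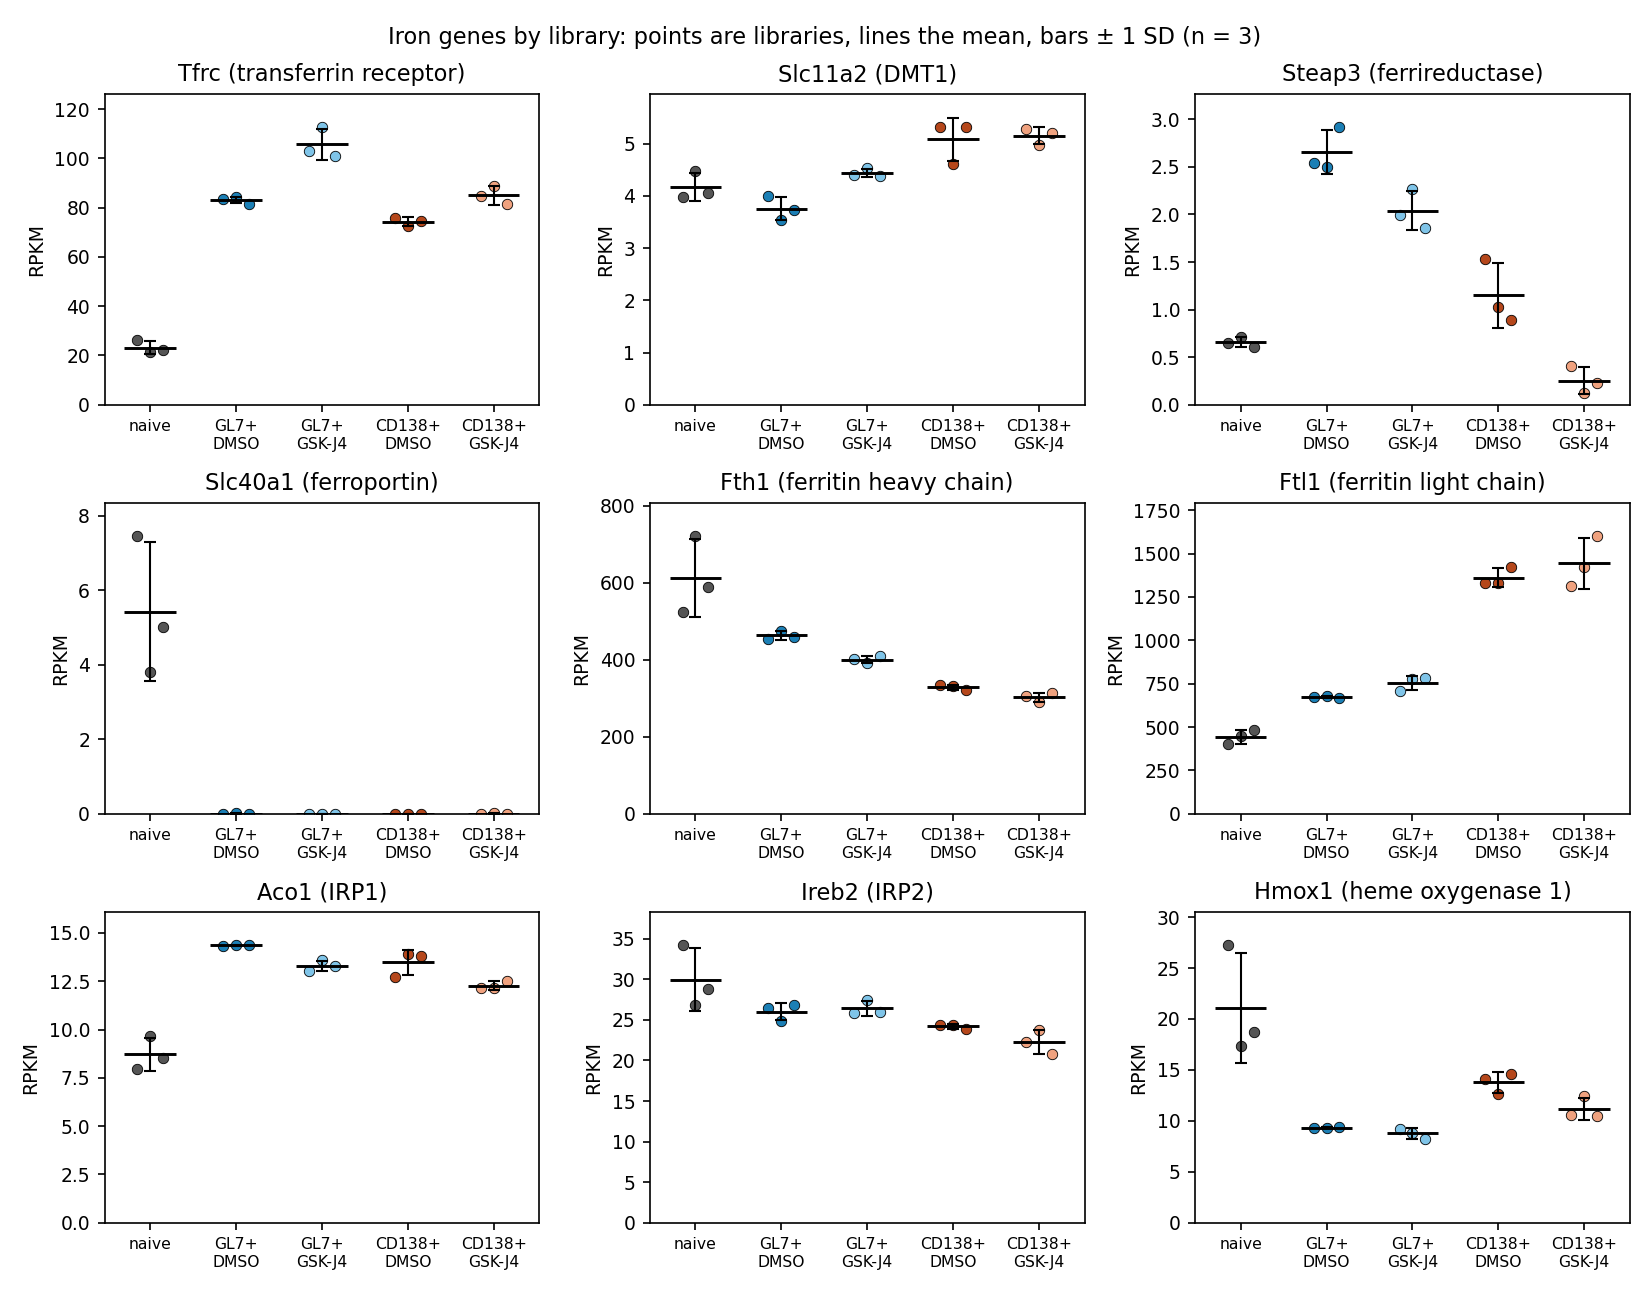
RPKM of the 9 iron genes (y axes, each from 0) in 5 groups (x axes); each point is a library, the line is the mean and the bar ± 1 SD (n = 3). Tfrc is lowest and Slc40a1 highest in naive libraries, Fth1 and Ftl1 move in opposite directions from naive to CD138+ cells, and Steap3 is lowest in CD138+ cells with GSK-J4.

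Slc40a1, the iron exporter ferroportin, was found almost only in naive libraries. It stood at 7.466, 3.812 and 5.021 RPKM there, on 937 reads in all. In cultured cells, 1 GL7+ DMSO library listed 0.012 RPKM and 1 CD138+ GSK-J4 library 0.019, each from a single read, and the other 10 listed 0. Over the group, and with a floor of 3 reads where none was found, naive cells were at least 487-fold higher than CD138+ DMSO cells, and the ratio to GL7+ DMSO cells, which rests on 1 read, was 1480 (266 to 58700, counting error only). These values give no order between the cultured groups, since that interval includes the bound for CD138+ DMSO cells. The gene passed the filter on low values only through the naive libraries, so its called falls (-2.64 and -2.65 on the log2(RPKM + 1) scale) were bound to appear once it was tested and support nothing further. Between the cultured groups its level was at or under the floor, and no fold is given.

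The naive level of Slc40a1 came with macrophage transcripts. Ferroportin is known to be abundant in the iron-recycling macrophages of the spleen, for which the transcription factor Spic is a marker. Spic was at 8.863 RPKM in naive and at 0.02533 in CD138+ DMSO cells, and the complement gene C1qc was at 14.25 in naive cells and at 0 in every cultured library. All 11 tested markers of the 12 were called lower in CD138+ DMSO than in naive cells, where 43.5% of all tested genes were, and 9 of 11 in GL7+ DMSO cells, where 40.3% were. For 7 of the 11 the count supports nothing, because they passed the filter only through naive libraries. The marker sum in naive libraries 1, 2 and 3 was 161.6, 114.41 and 149 RPKM. Library 1 was highest and library 2 lowest in this sum, in Slc40a1 and in Hmox1, but also in Tfrc, in Ireb2 and in read total. The part of these transcripts in the Slc40a1 level was not tested.

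The mRNAs of the ferritin chains moved in opposite directions from naive to GL7+ and CD138+ cells. Fth1, the heavy chain that oxidises iron as it enters the shell, was at 524.455, 722.083 and 590.449 RPKM in naive libraries, at 454.218, 475.424 and 460.013 in GL7+ DMSO and at 333.425, 331.373 and 320.484 in CD138+ DMSO libraries. Ftl1, the light chain that helps form the mineral core, was at 401.948, 450.344 and 480.451 in naive libraries, at 671.013, 677.11 and 667.874 in GL7+ DMSO and at 1332.603, 1327.384 and 1424.154 in CD138+ DMSO libraries. Neither chain had overlapping ranges between these 3 groups, and the heavy chain stepped down where the light chain stepped up.

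Fth1 fell by 0.39 on the log2 scale from naive to GL7+ cells (adjusted p = 0.00056) and by 0.88 from naive to CD138+ cells (adjusted p = 1.1e-07). Ftl1 rose by 0.60 (adjusted p = 4.5e-06) and by 1.62 (adjusted p = 4.1e-11). Between the cultured fractions, CD138+ cells had 0.709 times the Fth1 and 2.03 times the Ftl1 of GL7+ cells, and both differences were called (-0.49, adjusted p = 0.00014, and 1.02, adjusted p = 5.5e-08). In mean level Ftl1 went from rank 98 among tested genes in naive cells to rank 23 in CD138+ DMSO cells, and Fth1 from rank 66 to rank 153.

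The ratio of Fth1 to Ftl1 RPKM per library was 1.305, 1.603 and 1.229 in naive, 0.6769, 0.7021 and 0.6888 in GL7+ DMSO and 0.2502, 0.2496 and 0.225 in CD138+ DMSO libraries. Heavy chain mRNA thus exceeded light chain mRNA per length in every naive library and was below it in every cultured one. The exact two-sided permutation test gave p = 0.1 for each pair of these groups, which is the smallest that 3 against 3 libraries allow (0.143 after adjustment over 10 ratio comparisons). Summed over both chains, ferritin was at 1057 ± 124 RPKM in naive, 1135 ± 15.1 in GL7+ DMSO and 1690 ± 47.6 in CD138+ DMSO cells. The macrophage and erythroid marker sums given above were higher in naive than in cultured libraries. The part of these transcripts in the naive Fth1 and Ftl1 levels and in their ratio was not tested. Reads of Ftl1 can be shared with near-identical copies, of which Ftl2 was listed at 0 to 0.857 RPKM.

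With GSK-J4, Fth1 was at 401.195, 391.966 and 408.626 RPKM in GL7+ libraries, below each DMSO library, and Ftl1 at 709.267, 776.434 and 782.47, above each. Neither change was called (Fth1 -0.21, adjusted p = 0.12, 0.0088 to 0.27 over the alternatives; Ftl1 0.17, adjusted p = 0.18, 0.04 to 0.38). The Fth1 to Ftl1 ratio was 0.531 ± 0.0313 with the drug against 0.689 ± 0.0126 without it, with no overlap of libraries (exact permutation p = 0.1, 0.143 adjusted). In CD138+ cells with GSK-J4, Fth1 was at 305.777, 289.549 and 312.935, below the DMSO range, and Ftl1 at 1310.353, 1420.341 and 1601.845, overlapping it. Neither was called there (Fth1 -0.12, adjusted p = 0.4; Ftl1 0.08, adjusted p = 0.56). The ratio was 0.211 ± 0.0199 with the drug and 0.242 ± 0.0144 without it, and the libraries overlapped (exact permutation p = 0.2, 0.25 adjusted).

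**Figure D2:**
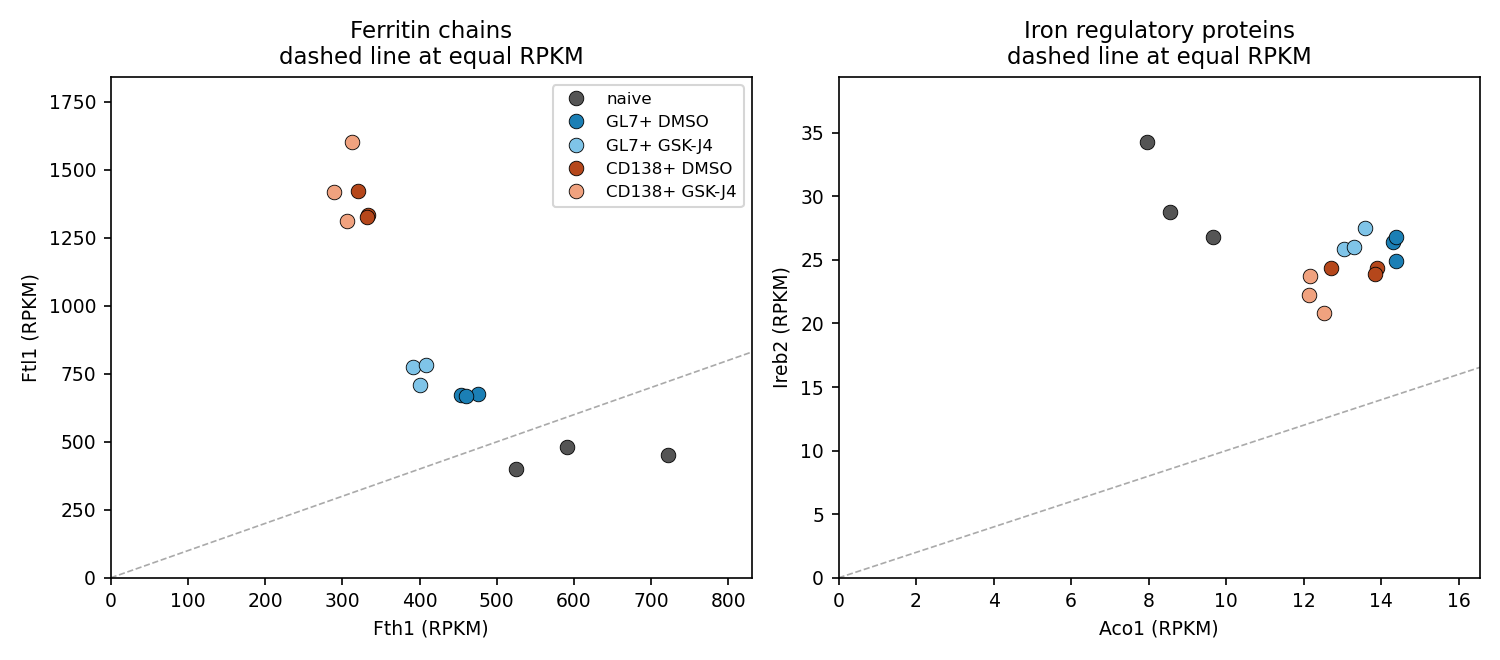
Left, Ftl1 against Fth1, and right, Ireb2 against Aco1, both axes in RPKM, with 1 point per library coloured by group and a dashed line at equal RPKM. Naive libraries lie below the line for ferritin and all others above it, with CD138+ libraries farthest away; for the regulatory proteins every library lies above the line, and the naive libraries stand apart at low Aco1.

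Of the 2 sensors, Aco1 encodes IRP1, which is a cytosolic aconitase when it holds an iron-sulfur cluster, and Ireb2 encodes IRP2, which is degraded when iron is plentiful. Aco1 was at 7.969, 9.662 and 8.549 RPKM in naive libraries, at 14.311, 14.386 and 14.378 in GL7+ DMSO and at 12.705, 13.889 and 13.831 in CD138+ DMSO libraries. Every cultured DMSO library exceeded every naive one, with rises of 0.66 (adjusted p = 1.1e-07) and 0.58 (adjusted p = 4.7e-07). The cultured fractions did not overlap but differed by only -0.09, which was not called (adjusted p = 0.25).

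Ireb2 moved the other way and by less. It was at 34.252, 26.78 and 28.774 RPKM in naive, 26.411, 24.886 and 26.809 in GL7+ DMSO and 24.394, 24.325 and 23.893 in CD138+ DMSO libraries. The fall in CD138+ cells was -0.29 (adjusted p = 0.0023) with no overlap. In GL7+ cells the ranges overlapped, and the called change of -0.19 (adjusted p = 0.03) was lost without naive library 1 (adjusted p = 0.19), without GL7+ DMSO library 2 (0.1) and in a fit of these groups alone (0.095). The Ireb2 to Aco1 ratio was 3.48 ± 0.769 in naive cells and between 1.80 and 1.99 in the 4 cultured groups, and no naive library reached down to a cultured one (exact permutation p = 0.1 for GL7+ and for CD138+ DMSO against naive).

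With GSK-J4, Aco1 was at 13.038, 13.577 and 13.289 RPKM in GL7+ and 12.131, 12.158 and 12.538 in CD138+ libraries, in each fraction below all DMSO libraries. The differences were small and not called (-0.10, adjusted p = 0.3, and -0.12, adjusted p = 0.22). Ireb2, at 25.861, 27.512 and 25.995 in GL7+ and 22.263, 23.753 and 20.801 in CD138+ libraries, was not called either (0.02, interval -0.14 to 0.18, and -0.12, interval -0.28 to 0.04).

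Hmox1, the heme oxygenase that frees iron from heme, was highest in naive cells, at 27.276, 17.331 and 18.701 RPKM. GL7+ DMSO libraries had 9.254, 9.315 and 9.382 and CD138+ DMSO libraries 14.098, 12.596 and 14.618, with no overlap between the 3 groups. It fell by 1.07 on the log2 scale in GL7+ cells (adjusted p = 1.3e-06) and by 0.56 in CD138+ cells (adjusted p = 0.00075), and CD138+ exceeded GL7+ cells by 0.52 (adjusted p = 0.0025). Splenic macrophages also express Hmox1, and the macrophage marker sum was higher in naive than in cultured libraries, as given above; the part of these transcripts in the naive level was not tested. In cultured libraries the macrophage sum was 11.053 to 14.133 RPKM in GL7+ DMSO and 8.681 to 11.847 in CD138+ DMSO libraries, ranges that overlapped. Single markers differed in both directions between GL7+ and CD138+ DMSO cells. Mean RPKM rose for Mrc1 (0.342 and 2.93) and Lyz2 (0.32 and 1.89) and fell for Cd68 (8.94 and 4.56) and Itgam (2.71 and 0.486). The part of macrophage transcripts in the Hmox1 difference between the fractions was not tested.

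With GSK-J4, Hmox1 was at 9.247, 8.852 and 8.208 RPKM in GL7+ and at 10.573, 12.423 and 10.457 in CD138+ libraries, in both fractions below all DMSO libraries. Neither difference was called (-0.08, interval -0.35 to 0.19, adjusted p = 0.73, and -0.28, interval -0.55 to -0.02, adjusted p = 0.16). In CD138+ cells the adjusted p ran from 0.022, without naive library 1, to 0.35 over the alternatives.

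Counted together, 4 of the 9 genes were called higher and 4 lower in GL7+ DMSO than in naive cells, where 81.7% of all tested genes were called (41.3% higher and 40.3% lower). In CD138+ DMSO cells 5 were higher and 4 lower, where 83.4% of tested genes were called (39.9% higher and 43.5% lower). Steap3, among the higher, passed the filter only through cultured libraries and Slc40a1, among the lower, only through naive ones. Their calls and gaps against naive are a description. The ranges of the groups did not overlap for 7 of the 9 in GL7+ against naive (80.7% of tested genes), for 9 of 9 in CD138+ against naive (82.2%) and for 8 of 9 in CD138+ against GL7+ cells (71.3%). A call or a gap against naive was therefore the common outcome and does not set these genes apart. Between CD138+ and GL7+ cells under DMSO, 3 genes were higher and 2 lower, against 58.7% of tested genes called (21.8% higher and 36.9% lower). Steap3 is among the lower, and its call there is a description, as it passed the filter through GL7+ cells. The median change over all tested genes was -0.10. The 9 genes had a median change of -0.12 in GL7+ and 0.23 in CD138+ cells against naive, where all tested genes had 0.01 and -0.05. These comparisons share libraries, naive or DMSO, and are given side by side for that reason.

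With GSK-J4, 1 of the 9 genes, Tfrc, was called higher in GL7+ cells, where 13.5% of tested genes were called (5.81% higher and 7.71% lower). In CD138+ cells 1 gene, Steap3, was called lower, where 13.2% of tested genes were called (4.61% higher and 8.61% lower). That background of 1437 genes, 34.9% of them higher, was 927 genes when the mouse was fitted as a block, and 46.7% of its calls were higher after quantile normalization. Groups did not overlap for 7 of the 9 genes in GL7+ cells, against 40.6% of tested genes, and for 6 of 9 in CD138+ cells, against 36.8%. No gene of the 9 was called for a difference between the drug effects with limma, against 0.966% of tested genes. At an unadjusted p under 0.05 Steap3 alone passed, and limma-voom called Steap3 alone. For the 8 other genes the intervals of that difference all included 0, the widest running from -0.58 to 0.17 for Hmox1 among genes above the floor.

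**Figure D3:**
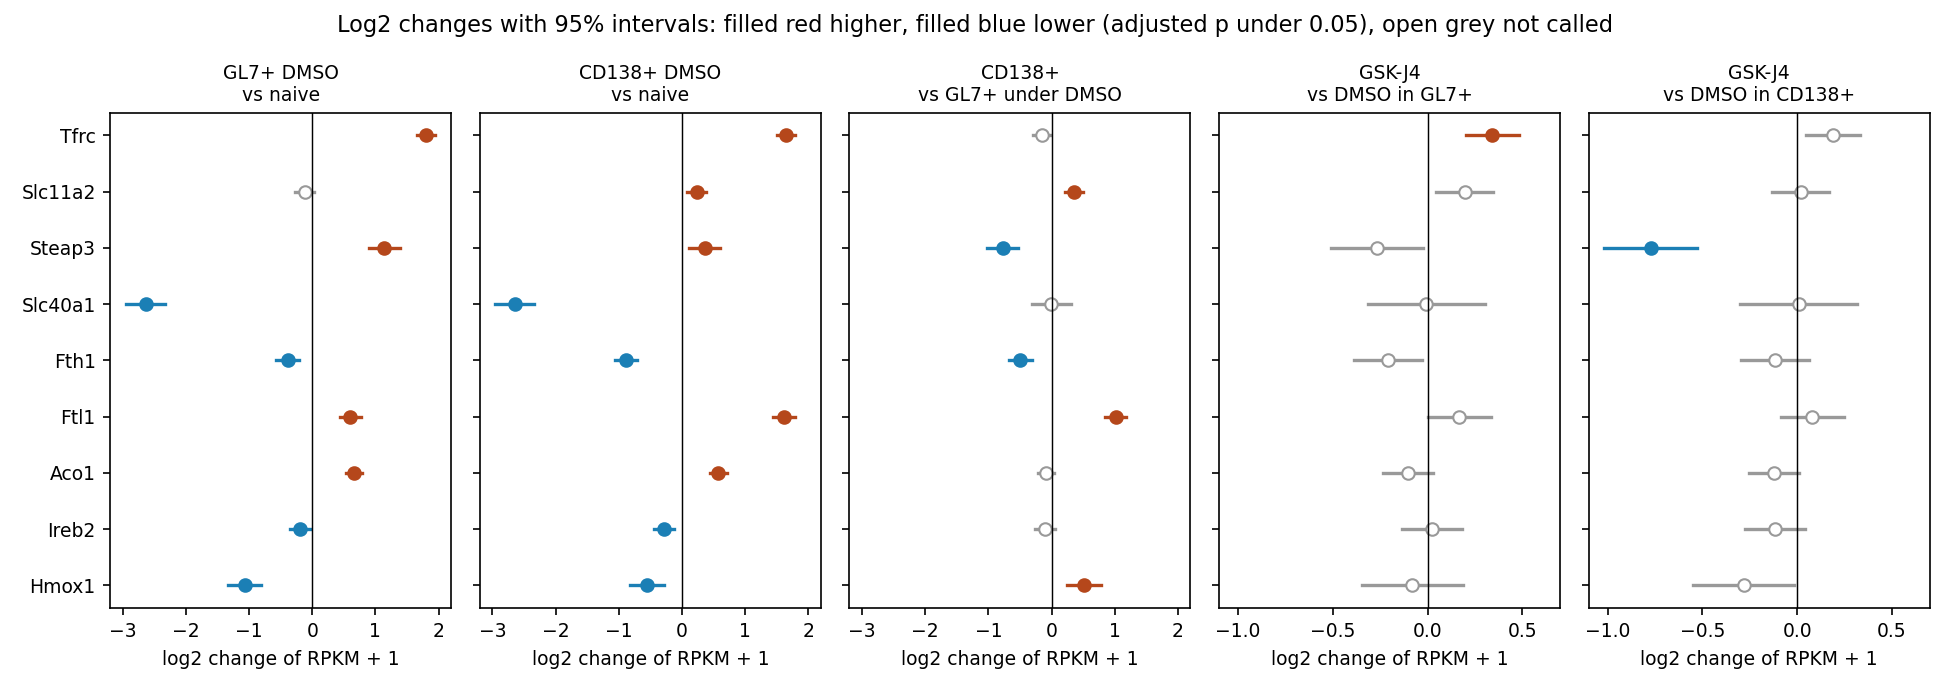
Log2 changes of RPKM + 1 (x axes, log scale by construction) with 95% intervals for the 9 genes in 5 comparisons; filled red points were called higher, filled blue points lower and open grey points not called. The 3 left panels share one scale and the 2 drug panels a narrower one, on which Tfrc in GL7+ cells (0.34) and Steap3 in CD138+ cells (-0.77) are the called changes.

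Ordered by mean level over the 5 groups, each gene had its own sequence of steps. Tfrc rose from naive through CD138+ DMSO, GL7+ DMSO and CD138+ GSK-J4 to GL7+ GSK-J4, and only the neighbours GL7+ DMSO and CD138+ GSK-J4 overlapped. Fth1, Steap3 and Hmox1 had no overlapping neighbours at all. Ftl1 overlapped only between its top groups, CD138+ DMSO and CD138+ GSK-J4. Across the 15 libraries, Pearson's r of log2(RPKM + 1) was -0.937 between Fth1 and Ftl1 and 0.889 between Tfrc and Aco1. For Slc40a1 it was 0.853 with Hmox1, -0.954 with Tfrc and -0.951 with Aco1. For Hmox1 it was -0.859 with Tfrc and -0.856 with Aco1. Slc40a1 was at or under the floor in every cultured group, so its r mainly separated naive from cultured libraries and supports nothing further. All these r values describe libraries that share mice and groups, and other pairs are not given.

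Genes with a pattern over the 15 libraries most like that of a chosen gene were sought among 7674 genes with a mean of at least 5 RPKM. For Tfrc they were Atad2 (r = 0.995), Mcm7 (0.994), a subunit of the replicative helicase, and Gspt1 (0.994). For Fth1 they were Zmiz2 (0.984), Rac2 (0.980) and Sh3bgrl3 (0.980), and for Hmox1 Abca7 (0.970), Gtpbp2 (0.960) and Ddx17 (0.959). Patterns like that of Tfrc were common, as 18.6% of the genes had r over 0.9 with it, against 8.82% for Fth1 and 2.37% for Hmox1. For Slc40a1 they were Pde7a (0.995), Numa1 (0.993) and Cacna1i (0.992), with 13.6% of genes over 0.9. With Slc40a1 at or under the floor in every cultured group, this likeness mainly separated naive from cultured libraries and supports nothing further.

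A further 82 genes of iron and heme handling, in 7 lists, gave the surroundings of the 9, and 69 of them passed the filter on low values. Of the 69, 6 reached 1 RPKM in no cultured library and 3 in no naive one. Slc39a14 reached it in 1 naive library only and so passed through cultured ones as well. Against naive, 39 were higher and 27 lower in GL7+ DMSO cells (95.7% called, 81.7% over all tested genes) and 32 higher and 28 lower in CD138+ DMSO cells (87% called, 83.4% over all). Between CD138+ and GL7+ cells 16 were higher and 21 lower (53.6% called, 58.7% over all). With GSK-J4, 3 were higher and 1 lower in GL7+ cells (5.8% called, 13.5% over all) and 3 higher and 3 lower in CD138+ cells (8.7% called, 13.2% over all). Neither drug count was above the background, and limma called none of the 69 for a difference between the drug effects.

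Among accessory genes of iron transport, 9 were tested, and 7 were lower and 2 higher than naive in GL7+ DMSO as in CD138+ DMSO cells, against 40.3% and 43.5% of all tested genes lower. That count was largely set by the filter on low values: Trf, Hfe, Slc11a1 and Lrp1 passed it only through naive libraries and Steap4 only through cultured ones. Slc25a37, the mitochondrial iron importer mitoferrin 1, went from 60.2 ± 7.34 RPKM in naive to 12.5 ± 0.399 in GL7+ cells. Hfe, which modulates the transferrin receptor, was at 4.28 in naive and 0.178 in GL7+ cells, and Trf, transferrin itself, at 10.9 and 0.013. The macrophage and erythroid marker sums given above were likewise higher in naive than in cultured libraries. In naive libraries 1, 2 and 3, Hfe was at 3.919, 4.406 and 4.514 RPKM and Trf at 13.739, 8.315 and 10.648. The macrophage marker sum was highest in library 1 and lowest in library 2, the order of Trf but not of Hfe. Trf was higher in CD138+ (0.766) than in GL7+ DMSO cells (0.0133), where the macrophage sums overlapped but single macrophage markers differed in both directions. The part of macrophage and erythroid transcripts in these levels, that of Slc25a37 among them, was not tested. Slc39a14, a zinc and iron importer, was at 0.899 in naive, 3.82 in GL7+ and 6.06 in CD138+ DMSO cells and was higher in CD138+ than GL7+ cells by 0.55. With 1 naive library at 1 RPKM it passed the filter through cultured libraries, so its calls against naive are a description. Steap4, another metalloreductase, was higher with GSK-J4 in CD138+ cells (5.30 ± 1.11 against 2.93 ± 0.694 RPKM, 0.68, adjusted p = 0.014), the opposite sign to Steap3. That call was lost without CD138+ DMSO library 3 (adjusted p = 0.068) or CD138+ GSK-J4 library 1 (0.062).

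Genes that load ferritin or control the regulatory proteins changed in both directions. Of 8 tested, 4 were higher and 3 lower than naive in GL7+ cells, and 4 and 4 in CD138+ cells, near the shares over all tested genes (41.3% and 40.3%, 39.9% and 43.5%). Pcbp1, a chaperone that delivers iron to ferritin, was at 110.7 ± 6.93 RPKM in naive and 248 ± 4.55 in GL7+ DMSO cells, a rise of 1.16. Fbxl5, the ubiquitin ligase subunit that marks IRP2 for degradation, fell by 1.30, from 14.6 ± 1.33 to 5.31 ± 0.0735, and was lower still in CD138+ cells (3.998 ± 0.403; -0.34, adjusted p = 0.002). With GSK-J4, Pcbp1 was called higher in GL7+ cells (0.20, adjusted p = 0.031), a call lost when any of GL7+ DMSO libraries 1, 2 or 3 or GL7+ GSK-J4 libraries 2 or 3 was left out (adjusted p up to 0.12).

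Of 12 tested heme synthesis genes, 6 were higher and 5 lower in GL7+ than in naive cells (41.3% and 40.3% over all tested genes), and 5 and 5 in CD138+ cells (39.9% and 43.5%). In CD138+ against GL7+ cells 5 were higher and 1 lower (21.8% and 36.9% over all). Cpox, an enzyme late in the pathway, was at 5.97 RPKM in naive and 27.7 in GL7+ DMSO cells. Abcb6, a porphyrin transporter, was at 2.77 in naive, 8.79 in GL7+ and 18.5 in CD138+ cells. Alas2, the erythroid form of the first enzyme, whose mRNA is known to carry an IRE, was at 4.01 in naive and 0.254 in GL7+ cells. It passed the filter only through naive libraries and is itself 1 of the 8 erythroid markers summed above, and the part of erythroid transcripts was not tested. Alad, the second enzyme of the pathway, was called higher with the drug in GL7+ cells (0.35, adjusted p = 0.029) and in CD138+ cells (0.32, adjusted p = 0.043). The call in GL7+ cells was lost with no filter (adjusted p = 0.056), with only the groups compared (0.057) and without some single GL7+ libraries. In CD138+ cells it was lost with a pseudocount of 0.1 (adjusted p = 0.051), with no filter (0.08) and with the mouse fitted (0.095). There it was also lost without some single libraries of either fraction. Over the alternatives the adjusted p ran from 0.0062 to 0.13 in GL7+ and from 0.01 to 0.14 in CD138+ cells.

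Among genes of heme transport and breakdown, 4 were higher and 2 lower of 6 tested in both fractions against naive, where 41.3% of all tested genes were higher in GL7+ and 39.9% in CD138+ cells. The filter fixed 2 of these calls, since Hebp1 passed it only through naive and Abcg2 only through cultured libraries. Blvrb, a biliverdin reductase that acts after heme oxygenase, was at 42.0 ± 4.88 RPKM in naive, 14.8 ± 0.935 in GL7+ and 8.62 ± 0.712 in CD138+ DMSO cells. Macrophage and erythroid marker sums were also higher in naive libraries, and the part of these transcripts in its naive level was not tested. Hmox2, the constitutive heme oxygenase, was higher in GL7+ cells than in naive cells (41.8 against 29.5), the opposite of Hmox1. Slc48a1, which moves heme out of lysosomes, was at 10.7 in naive, 21.7 in GL7+ and 30.6 in CD138+ cells.

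Of 7 regulators of Hmox1 transcription, 5 were lower and 2 higher in GL7+ than in naive cells (40.3% and 41.3% over all tested genes), and 4 lower and 3 higher in CD138+ cells (43.5% and 39.9%). Bach2, a repressor that binds with small Maf proteins, was at 40.6 RPKM in naive, 10.7 in GL7+ and 4.47 in CD138+ DMSO cells. Its relative Bach1, a heme-binding repressor, was higher in CD138+ (10.9) than in GL7+ cells (3.54), or 3.08 times. Nfe2l2, the activator NRF2, was at 17.9, 8.72 and 6.82 in the 3 groups. Mafk, a small Maf partner, fell further with GSK-J4 in CD138+ cells, from 6.23 ± 0.296 to 4.21 ± 0.588 RPKM (-0.48, adjusted p = 0.0012).

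Of 24 tested genes of iron-sulfur cluster assembly, all of which passed the filter in both naive and cultured libraries, 19 were higher and 4 lower in GL7+ than in naive cells, where 41.3% of all tested genes were higher. The list median was 0.43 against 0.01 over all tested genes. In CD138+ cells 12 were higher and 5 lower than naive (39.9% and 43.5% over all), and against GL7+ cells 4 were higher and 10 lower (21.8% and 36.9% over all). Hspa9, the mitochondrial chaperone of the pathway, was at 80.3 ± 4.83 RPKM in naive, 270.2 ± 13.1 in GL7+ and 175 ± 3.04 in CD138+ DMSO cells. Glrx5, which passes clusters on, was at 15.05 in naive, 44.42 in GL7+ and 35.96 in CD138+ cells. Hscb, the co-chaperone of Hspa9, was lower with GSK-J4 in GL7+ cells (-0.50, adjusted p = 0.0085). In CD138+ cells with the drug, Bola3 was higher (0.53, adjusted p = 0.0052) and Nubp1 (-0.27, adjusted p = 0.0076) and Hspa9 (-0.19, adjusted p = 0.021) were lower, and the call for Hspa9 was lost when the mouse was fitted (adjusted p = 0.088) and without any of CD138+ DMSO libraries 1 and 2 and CD138+ GSK-J4 libraries 2 and 4 (0.054 to 0.078).

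**Figure D4:**
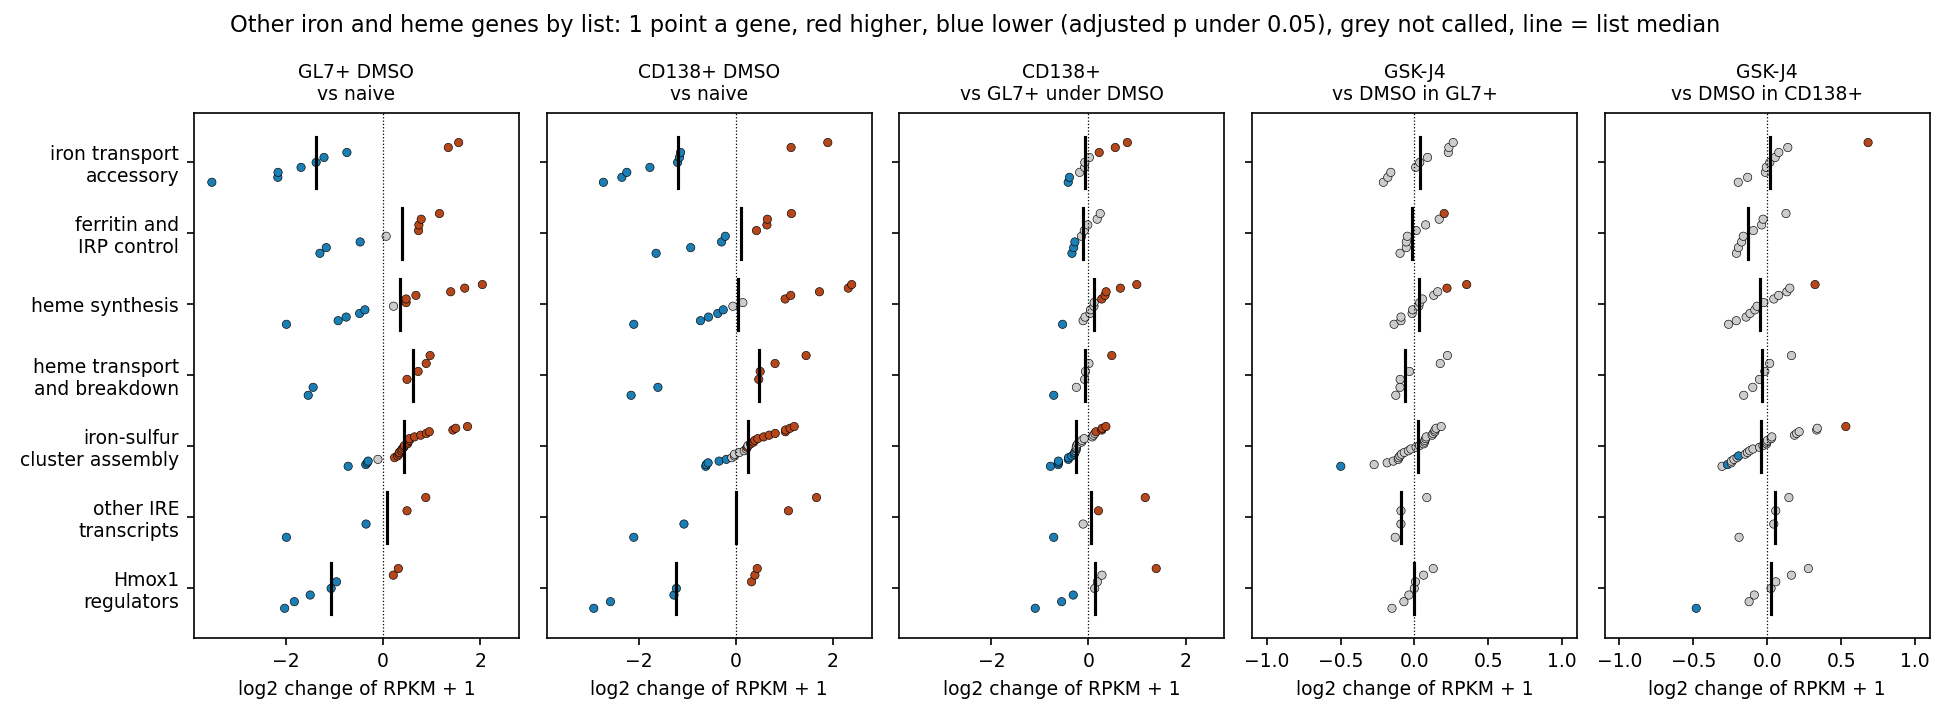
Log2 changes of RPKM + 1 (x axes) of the tested genes in 7 lists of iron and heme genes (y axis) in 5 comparisons, 1 point per gene, red called higher, blue called lower, grey not called, with a black line at the list median. Iron-sulfur cluster genes lie mostly to the right against naive in GL7+ cells (median 0.43) and most points are grey in the drug panels.

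Of other mRNAs known to carry an IRE, 4 were tested, of which Alas2 passed the filter only through naive and Epas1 only through cultured libraries. Epas1, which encodes HIF-2 alpha, was at 0.077 RPKM in naive and 0.517 in GL7+ cells, and at 2.43 in CD138+ cells, higher than GL7+ by 1.17. It reached 1 RPKM in the 6 CD138+ libraries and in no other, so that difference is a description. Cdc14a was lower in GL7+ (4.37) and in CD138+ cells (2.27) than in naive cells (5.85). No gene of the 4 was called with GSK-J4 in either fraction by limma.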

How the data were processed

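RNA was extracted with a Zymo kit and made into poly(A) libraries with a KAPA kit, per the labels' protocols. Reads were handled with TopHat2 on mm9, per the submitters' processing notes; for the counting tool and annotation, the entry is: not given in the sources used here. The authors deposited 1 table of RPKM per gene, and every value was used as deposited. The low RPKM values were whole multiples of 1 read, which gave each library's read total (100% of values of up to 20 reads were whole within 0.1 read). Precision for low genes follows from these reads: intervals and floors (3 reads) cover counting error only, since no molecular identifiers were given. Of the 21761 gene rows, 21615 had an Entrez ID in the RefSeq table (GRCm38.p6), and 27 symbols changed to dates were restored from it.

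Genes reaching 1 RPKM in 3 or more libraries (10866; all 9 iron genes) were tested in 1 limma fit (3.58.1, R 4.3.3) of log2(RPKM + 1), pseudocount 1, with trended variance over 15 libraries, 1 mean per group, and Benjamini-Hochberg adjustment; the script was tested on simulated data. The design had provided for a count test had the table held counts. Ratios of partner genes were compared with exact permutation tests. Alternatives were a pseudocount of 0.1, no filter, quantile normalization, the mouse as a block, voom on recovered reads, only the groups compared, and leaving out each library. Same-numbered libraries come from 1 mouse by the labels; what remained after subtracting each group's mean had a median correlation of 0.079 within a mouse (26 pairs) and -0.032 between mice (52 pairs). The CD138+ GSK-J4 column numbered 4 was assigned by its group name only and had no mouse in the block; whether it is that group's labelled replicate from mouse 3 is not stated.

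The 9 genes and all lists were chosen with earlier results of these data known. From each iron list up to 4 called genes with the smallest adjusted p per comparison could be named, and for Tfrc, Fth1, Hmox1 and Slc40a1 the 3 most alike genes. IREs were sought in a single GENCODE M21 transcript per gene on GRCm38, a build other than that of the RPKM. Some genes of the lists are not reported here by name.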

Additional observations from a re-analysis of the deposited data

How the results depend on the processing

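Directions of the 9 genes' called changes held in all 21 alternatives, and so did the calls for Tfrc with GSK-J4 in GL7+ cells and Steap3 in CD138+ cells. Of the 9, 3 were called with GSK-J4 in GL7+ cells after quantile normalization, with voom and with only the groups compared, and 1 to 3 with a library left out (2 without naive library 1, 3 without naive library 2). In CD138+ cells 2 were called under each of those 3 settings and 1 to 3 with a library left out (3 without naive library 1, 2 without naive library 2). Genes called in GL7+ cells numbered 2621 with voom against 1469, and 743 (without GL7+ GSK-J4 library 2) to 2258 (without naive library 2) with a library left out; the count was also low without GL7+ DMSO libraries 1 or 3 or GL7+ GSK-J4 library 3 (790, 841 and 819). In CD138+ cells they numbered 827 (without CD138+ DMSO library 1 or 2; 866 without library 3) to 2201 (without naive library 2) against 1437. With the replicate block, 927 genes were called in CD138+ cells and 32 for the difference between drug effects against 105; the block changed no call among the 9 genes. That difference gave 53 genes with no filter, 433 with voom, which called 1 of the 9, 418 with only the groups compared and 18 to 361 with a library left out. Naive library 2 is the shallowest (1317998 reads), and low genes such as Steap3 are limited by depth; the cause of the other changes was not tested. The quantile setting also ended the call of Pcbp2 in CD138+ against naive cells (0.08, adjusted p = 0.1), and among single genes 49 settings lost a call and 21 gained one, with no change of direction.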
